A study of Mus musculus with 7 samples.

Results

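The genes described here are the zinc finger protein genes that carry the symbols Zfp600 to Zfp999. They were chosen by symbol alone, as the protein-coding mouse genes of the RefSeq annotation whose symbols fall in that range, with or without a closing letter, and 182 of 21631 protein-coding genes on the autosomes and the X chromosome met this rule. Replication origins had been mapped in mouse embryonic stem cells (mESCs) by sequencing short nascent strands, which are the short pieces of new DNA made where replication forks start. The question was where in and around these genes origins were found, and whether 2 kinds of replication stress changed that. Each of the 3 conditions had 2 libraries and 1 deposited list of origins.

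Cells of the WT condition were untreated. For APH they received aphidicolin at 0.5 µM over 2.5 h, and for CDC6 they received doxycycline at 1 µg/ml over 30 h. Aphidicolin inhibits the replicative DNA polymerases and slows forks. Doxycycline switched on a TetO-CDC6 transgene, which codes for a protein that helps load the replicative helicase. The WT 2 and APH libraries came from the same transgenic cells without doxycycline, while WT 1 came from another mESC line. The CDC6 libraries therefore differ from the other libraries of that line in doxycycline as well as in CDC6. Nothing in the labels says whether paired libraries derive from separate cultures, so the p-values below reflect only the spread between these libraries, which may be technical. The level of CDC6 was not measured by these libraries.

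Zfp genes code for proteins with arrays of C2H2 zinc fingers that bind DNA. Many also carry a KRAB domain, which recruits TRIM28 (KAP1) and through it SETDB1, HP1 proteins and histone deacetylases, and so silences retrotransposons in embryonic stem cells. KRAB zinc finger genes arose by repeated tandem duplication, lie in clusters, and differ much between rodents and primates. Origins in mammalian cells are known to lie often at CpG-rich promoters.

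Each library had a list of peaks from the MACS2 peak caller, called MACS peaks here, with 71435 to 94747 peaks per library. WT 1 stood apart from the other libraries. It had the most peaks, and 8.26% of them lay on chromosome 8 and 1.75% on the X chromosome, against 4.86% to 5.53% and 2.24% to 4.15% in the other 5 libraries. The 16 genes of the set on chromosome 8 held 48 MACS peaks in WT 1, 16 in WT 2, 11 and 16 in the APH libraries, and 25 and 20 in the CDC6 libraries. The part of the cell line in any difference between WT 1 and the other libraries was not tested. The origin lists held 20178 origins for WT, 31653 for APH and 31384 for CDC6. Each origin of a list overlapped a MACS peak in nearly every case in both libraries of its condition (99.4% in WT 1, and 100% in the other 5 libraries), so a listed origin has peaks in its own libraries by the way the list was made. A second deposited list per library also exists, and its labels are in doubt. Of the 6 second lists, 4 correlated best with the MACS list of another label: those labelled WT 2 and APH 1 matched each other's MACS lists, as did those labelled APH 2 and CDC6 1. The 20178 origins of the WT list had the coordinates of regions in the second list labelled APH 1, and the 31653 of the APH list those of the second list labelled CDC6 1, while the 31384 of the CDC6 list came from that labelled CDC6 2. The condition lists thus go with the labels of the MACS lists. The results below rest on these, with the second lists used only as alternatives. The second lists labelled APH 1, CDC6 1 and CDC6 2 held 44860, 41376 and 62922 regions. Each condition list thus holds some of the regions of 1 library, and how they were chosen is not stated.

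A gene end means the 1 kb on each side of either end of the annotated gene, and the interior means the gene body more than 1 kb from both ends. All positions refer to mm10 (GRCm38). The promoter windows that carry the contrast described below are shown first. They run from 250 bases before to 50 bases after a transcription start, are taken from RefSeq (GRCm38.p6), and are written 5′ to 3′ on the gene's strand with every CpG in capitals. Zfp746 (chr6:48086544-48086843, minus strand), Zfp664 (chr5:124862455-124862754, plus strand) and Zfp644 (chr5:106696476-106696775, minus strand) are shown because an origin of all 3 lists covered the start.
Zfp746: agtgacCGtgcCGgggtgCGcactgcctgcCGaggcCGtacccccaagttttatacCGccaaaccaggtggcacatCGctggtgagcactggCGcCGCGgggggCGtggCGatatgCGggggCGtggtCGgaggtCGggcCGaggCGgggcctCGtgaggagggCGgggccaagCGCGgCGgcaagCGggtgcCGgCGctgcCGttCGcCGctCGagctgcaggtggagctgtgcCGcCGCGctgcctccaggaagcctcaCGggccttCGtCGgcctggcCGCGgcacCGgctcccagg
Zfp664: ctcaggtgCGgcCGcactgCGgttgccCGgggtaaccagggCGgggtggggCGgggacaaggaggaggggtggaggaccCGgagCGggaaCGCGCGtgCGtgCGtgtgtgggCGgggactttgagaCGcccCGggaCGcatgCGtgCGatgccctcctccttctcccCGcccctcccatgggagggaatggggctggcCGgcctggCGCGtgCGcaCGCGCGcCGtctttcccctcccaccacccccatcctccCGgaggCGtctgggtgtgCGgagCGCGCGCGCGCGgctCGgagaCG
Zfp644: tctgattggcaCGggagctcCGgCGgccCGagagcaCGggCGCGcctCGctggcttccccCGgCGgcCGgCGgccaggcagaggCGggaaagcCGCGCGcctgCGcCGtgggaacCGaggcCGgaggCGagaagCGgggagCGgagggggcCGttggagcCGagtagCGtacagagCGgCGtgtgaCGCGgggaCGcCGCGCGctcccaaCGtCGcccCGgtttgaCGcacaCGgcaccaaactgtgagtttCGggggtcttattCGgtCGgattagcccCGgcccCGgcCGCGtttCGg
These windows held 39, 39 and 47 CpG dinucleotides. Zfp758 (chr17:22361213-22361512, plus strand), Zfp788 (chr7:41634540-41634839, plus strand) and Zfp811 (chr17:32809882-32810181, minus strand) are shown because their gene ends had an origin in only some lists.
Zfp758: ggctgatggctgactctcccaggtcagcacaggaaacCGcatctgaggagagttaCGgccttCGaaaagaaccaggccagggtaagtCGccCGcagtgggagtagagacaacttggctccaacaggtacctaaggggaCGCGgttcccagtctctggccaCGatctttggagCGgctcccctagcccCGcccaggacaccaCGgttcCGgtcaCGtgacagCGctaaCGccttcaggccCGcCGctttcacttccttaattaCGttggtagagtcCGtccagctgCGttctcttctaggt
Zfp788: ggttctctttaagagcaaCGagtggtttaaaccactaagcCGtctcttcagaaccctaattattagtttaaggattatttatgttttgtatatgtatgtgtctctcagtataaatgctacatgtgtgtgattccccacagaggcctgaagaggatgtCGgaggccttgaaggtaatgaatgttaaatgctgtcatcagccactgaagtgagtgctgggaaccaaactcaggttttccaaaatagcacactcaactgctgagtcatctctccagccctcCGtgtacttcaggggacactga
Zfp811: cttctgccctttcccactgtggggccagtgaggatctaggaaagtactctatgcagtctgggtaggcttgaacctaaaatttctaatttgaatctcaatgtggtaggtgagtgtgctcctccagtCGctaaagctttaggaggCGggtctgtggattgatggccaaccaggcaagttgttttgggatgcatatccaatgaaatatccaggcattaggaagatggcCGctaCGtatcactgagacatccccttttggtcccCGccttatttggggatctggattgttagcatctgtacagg
They held 20, 4 and 5 CpG dinucleotides. The window shown for Zfp788 belongs to a start just over 1 kb inside the annotated one. Another listed start of Zfp788 had 8 CpG dinucleotides in its window, and that number was used in the CpG results below. Zfp993 (chr4:146512599-146512898, plus strand) and Zfp966 (chr2:175931051-175931350, minus strand) are shown because no library had a peak anywhere in the gene.
Zfp993: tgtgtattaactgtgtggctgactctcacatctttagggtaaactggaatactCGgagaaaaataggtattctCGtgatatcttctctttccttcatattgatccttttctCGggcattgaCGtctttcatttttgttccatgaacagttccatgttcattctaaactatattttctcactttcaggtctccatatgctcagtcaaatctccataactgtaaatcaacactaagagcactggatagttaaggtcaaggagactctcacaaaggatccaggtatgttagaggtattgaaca
Zfp966: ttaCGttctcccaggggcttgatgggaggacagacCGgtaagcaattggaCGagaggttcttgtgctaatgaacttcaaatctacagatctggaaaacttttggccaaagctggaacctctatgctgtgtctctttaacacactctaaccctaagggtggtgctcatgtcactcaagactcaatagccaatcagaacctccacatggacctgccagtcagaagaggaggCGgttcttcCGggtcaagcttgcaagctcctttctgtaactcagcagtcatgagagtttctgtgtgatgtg
The windows of Zfp993 and Zfp966 held 4 and 5 CpG dinucleotides. The window of Zfp966 was the same, base for base, as that of its neighbour Zfp967.

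Origins at gene ends were found at a smaller share of the set than of protein-coding genes in general. In the WT list, 42 of the 182 genes (23.1%) had such an origin, against 32.2% of all genes. In the APH list there were 40 (22%), against 33.3%. In the CDC6 list there were 48 (26.4%), against 40.6%. With lists of equal length, the order depended on the score used to shorten them. When each list was shortened to the length of the WT list by the ratio of its 2 scores, an alternative chosen after seeing the data, the CDC6 list had 39 genes and the APH list 34, both below the 42 of the WT list. Shortened by the first score, the alternative planned beforehand, they had 46 and 36, so the order of the full lists stayed. The 212 Zfp genes with other numbers, the most similar genes, numbered 68, 66 and 69 with a gene-end origin in the WT, APH and CDC6 lists. The difference from them was not tested, since each condition has 1 list and the genes are not replicates. Where RefSeq gave the strand (158 genes of the set), 30, 30 and 34 genes had an origin at the transcription start end, against 30.1%, 30.5% and 37.3% of all genes with a strand. At the stop end the counts were 5, 5 and 6, against 4.13%, 5.09% and 6.82% of all genes.

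Inside the genes the counts lay nearer to those of other genes. An interior origin was found in 30 genes of the WT list (16.5%), 34 of the APH list (18.7%) and 40 of the CDC6 list (22%). Over all genes the interior shares were 19.7%, 25.2% and 26.5%. Over the body with 1 kb on each side, 62, 61 and 71 genes of the set held an origin, against 43.5%, 47.9% and 53.3% of all genes. With lists of equal length by the ratio of the 2 scores, the CDC6 list had 29 genes with an interior origin and 57 over the body with 1 kb. The WT list had 30 and 62, so by this ratio, chosen after seeing the data, the lead of the CDC6 list was lost. In total 82 of the 182 genes held an origin in at least 1 list and 100 held none. The median length of the set's genes was 19.3 kb, against 17.3 kb for all genes, so the set's genes were not shorter.

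In each single library, too, the share of all 182 genes with a gene-end peak lay below that of protein-coding genes in general. A MACS peak at a gene end was found for 114 of the 182 genes in WT 1 and 73 in WT 2, against 66.4% and 48.1% of all genes. The APH libraries had 70 and 72 genes, against 48.3% and 52.5%. The CDC6 libraries had 86 and 91, against 59.4% and 59.3%. As means these were 93.5 ± 29.0 genes for WT, 71 ± 1.41 for APH and 88.5 ± 3.54 for CDC6 (SD, n = 2 libraries). WT 1 lay above and WT 2 below both CDC6 libraries, and WT 2 lay within 3 genes of both APH libraries. The height of the WT mean thus rests on WT 1. Outside the chromosome 4 cluster described below, the share in WT 1 was 68.3% of 167 genes and so lay above the 66.4% of all genes. In the other 5 libraries the shares of these 167 genes were 43.7% in WT 2, 41.3% and 42.5% in APH, with 50.9% and 53.3% in CDC6, each below that of all genes. The lists without that cluster gave 25.1%, 24% and 28.7%, also below all genes. MACS peaks per 100 kb of body with 1 kb on each side gave another order. For these 167 genes the values were 5.85 and 4.56 in WT, 3.63 and 3.68 in APH, with 4.23 and 4.41 in CDC6. Over all genes they were 5.04 and 3.55, 3.26 and 3.38, with 3.91 and 4.23, lower in each library. For all 182 genes the density lay below that of all genes except in WT 2 (3.73 against 3.55).

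**Figure D1:**
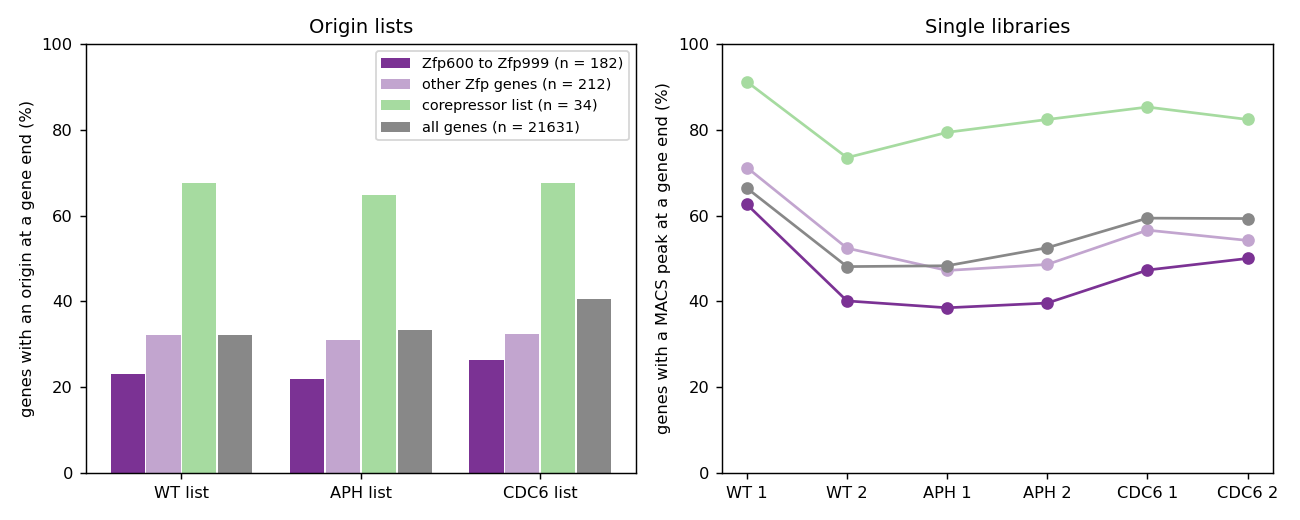
Left, the percentage of genes that have a gene-end origin (y axis) in the WT, APH and CDC6 lists for the Zfp600 to Zfp999 genes (n = 182), other Zfp genes (n = 212), the corepressor genes (n = 34) and all genes (n = 21631). Right, the percentage of genes with a MACS peak at a gene end in each of the 6 libraries. The Zfp600 to Zfp999 genes lie lowest in each list and library, at 23.1%, 22% and 26.4% in the lists.

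Most gene-end origins of the set were shared by the 3 lists. Of the 182 genes, 33 had a gene-end origin in all 3 lists (18.1%, against 27.3% of all genes), and 128 had none in any list (70.3%, against 55.9%). The other 21 genes split into 2 with WT only, 2 with APH only and 7 with CDC6 only (1.1%, 1.1% and 3.85% of the set, against 1.1%, 1.56% and 6.71% of all genes). A further 2 had WT and APH, 5 WT and CDC6, and 3 APH and CDC6 (1.1%, 2.75% and 1.65%, against 0.837%, 2.99% and 3.68%). Compared with the WT list, the APH list gained 5 genes and lost 7, where 5.24% and 4.1% of all genes did so. The CDC6 list gained 10 genes and lost 4, where 10.4% and 1.95% of all genes did so. Compared with the APH list, the CDC6 list gained 12 and lost 4, where 9.7% and 2.4% of all genes did so. The 3 comparisons share lists. With lists of equal length by score ratio, chosen after seeing the data, the net gain of the CDC6 list over the WT list turned into a net loss. With lists of equal length by the first score it stayed a net gain.

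The regions of the lists mostly had peaks in the libraries of every condition. The 56 gene-end origin regions of the set, merged over the lists, overlapped a MACS peak in all 6 libraries in 50 cases. The other 6 regions had peaks in 3 to 5 libraries. Of the 56 regions, 33 were in all 3 lists, so their peaks in all 6 libraries nearly follow from how the lists were made. The same share was not counted for the gene-end regions of all genes. A gene-end peak was present in all 6 libraries for 53 genes, against 39.5% of all genes, and in no library for 53 genes. Of the 128 genes without a gene-end origin, 75 had a peak there in at least 1 library and 53 had none. The share of genes without a gene-end peak was not counted over all genes. In 5 of the 182 genes a gene-end peak was present in all 6 libraries without an origin there in any list. Over all genes, 549 of 21631 were of this kind (2.54%), and 12084 had no gene-end origin in any list. The 5 genes of the set include Zfp623, Zfp640, Zfp617 and Zfp871. At Zfp623 the strongest gene-end peak had a fold over the control of 2.78 and 2.69 in the WT libraries, 2.52 and 2.5 in the APH libraries, and 3.44 and 2.57 in the CDC6 libraries. The median fold of all peaks was 2.43 to 2.73 by library, so the value of CDC6 1 lay above the medians and the other 5 close to them.

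The strongest gene-end origins belonged to Zfp654, Zfp746, Zfp607b, Zfp664, Zfp704, Zfp644, Zfp771 and Zfp629, ranked within each library by the peak's q-value. At Zfp654 (chr16:64850761-64853167) the fold over the control was 11.4 and 7.57 in the WT libraries, 10.8 and 11.3 in the APH libraries, and 9.96 and 8.91 in the CDC6 libraries. That region also touched an end of the neighbouring gene Cggbp1, so it cannot be assigned to Zfp654 alone. Zfp746, whose product is known as PARIS and represses the gene for PGC-1α, had its origin at the start (chr6:48085521-48087049). Its folds were 7.64 and 6.68 in WT, 10.3 and 11.1 in APH, with 8.84 and 7.69 in CDC6. Zfp644, a partner of the histone methyltransferases G9a and GLP, had folds of 8 and 5.43 in WT, 7.57 and 7.37 in APH, with 7.72 and 6.9 in CDC6 (chr5:106695739-106697194). Peaks at the 3 genes were thus present and strong in every library. WT 2, whose median fold over all peaks was the lowest, had the lowest fold at 6 of the 8 genes. Folds are the authors' values against a control that all libraries share, and no difference between conditions is drawn from them.

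Zfp664 had its origin (chr5:124861709-124863981) over a start that lies near an end of Ccdc92. Its folds were 8.59 and 5.56 in WT, 8.08 and 9.04 in APH, with 7.64 and 7.57 in CDC6. Zfp607b likewise shared its region (chr7:27673255-27675158) with an end of Map3k10. How often such sharing occurs over all genes was not counted. In the set, 13 of the 56 gene-end regions touched an end of another protein-coding gene, which concerns 15 genes. In 4 of these genes the other gene was itself in the set: Zfp668 shared a region with Zfp646 (chr7:127875341-127877034), and Zfp758 with Zfp944 (chr17:22361426-22362328). At Zfp771 an origin in all 3 lists lay at the stop end (chr7:127253267-127254873) within 1 kb of the annotated end. A second region in all 3 lists (chr7:127244101-127245318) began a little more than 1 kb inside the start of Zfp771 and so counts as interior, and another listed transcription start lies near it. Its folds were 6.48 and 4.68 in WT, 6.9 and 7.37 in APH, with 4.43 and 5.49 in CDC6.

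Several genes with known roles in stem cells or development also had a gene-end origin in all 3 lists. They are named for those roles, with their values already seen. Zfp706, which promotes exit from pluripotency, had folds of 6.85 and 3.58 in WT, 3.09 and 3.57 in APH, with 5.04 and 4.12 in CDC6 (chr15:37006513-37007950). Zfp711, the one gene of the set on the X chromosome and a partner of the histone demethylase PHF8, had folds of 4.91 and 3.06 in WT, 3.27 and 4.17 in APH, with 3.96 and 3.37 in CDC6. Both genes had a gene-end peak in each library. The ranges of the conditions overlapped at Zfp711, while at Zfp706 both APH folds lay just below all others. Zfp609, a partner of the cohesin loader and of Integrator, had folds of 9.36 and 3.83 in WT, 8.83 and 5.3 in APH, with 4.36 and 6.15 in CDC6. The ranges of the 3 conditions overlapped here as well. Zfp622, which acts in maturation of the large ribosomal subunit, had weak peaks in all 6 libraries, with folds of 2.08 to 3.18.

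Zfp809, Zfp819 and Zfp638 are 3 further genes named for their roles with their values already seen. Zfp809, which represses retroviruses that use a proline tRNA primer, had no gene-end origin in any list, and a gene-end peak only in WT 1 (fold 3.01) and APH 1 (fold 2.55). Zfp819, a KRAB gene active in pluripotent cells, had a gene-end peak only in WT 1 (fold 2.83). Zfp638, whose product NP220 silences unintegrated retroviral DNA, had a gene-end peak only in the CDC6 libraries (folds 2.25 and 2.21). It had no gene-end origin but held 2, 3 and 2 interior origins in the WT, APH and CDC6 lists.

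**Figure D2:**
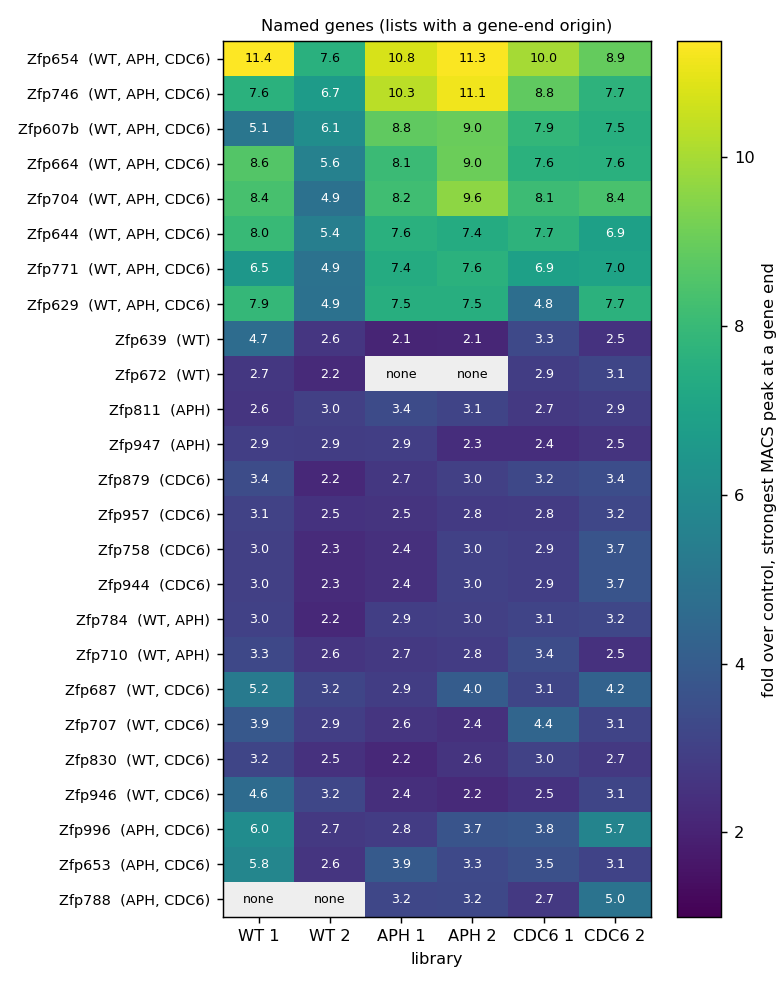
Fold over the control of the strongest MACS peak at a gene end (colour and number) for 25 named genes (rows, with the lists that hold a gene-end origin) in each of the 6 libraries (columns); grey cells have no peak there. The first 8 genes, chosen for their rank, have folds of 4.75 to 11.4, and 15 of the other 17 have a peak in all 6 libraries.

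Some genes that only part of the lists held had peaks in every library. Zfp639 was in the WT list only, yet its folds were 4.67 and 2.63 in WT, 2.08 and 2.12 in APH, with 3.3 and 2.51 in CDC6. Zfp672, the other gene in the WT list only, had gene-end peaks with folds of 2.69 and 2.25 in WT and of 2.89 and 3.15 in CDC6, and none in either APH library. Its neighbour Zfp692, whose body overlaps it, was in the CDC6 list only. Zfp811, in the APH list only, had folds of 2.59 and 2.95 in WT, 3.36 and 3.11 in APH, with 2.71 and 2.88 in CDC6. The origin of Zfp811 (chr17:32808659-32809271) lay inside the gene, past the window printed above. For Zfp811 and Zfp639 a peak was thus called in every library, and the lists differ in whether it was kept.

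The CDC6 list alone held a gene-end origin at Zfp879, Zfp957, Zfp758 and Zfp944, among others. Zfp758 and Zfp944 are neighbours that are transcribed away from each other, and share 1 region between their starts. Its folds were 2.98 and 2.29 in WT, 2.43 and 2.99 in APH, with 2.91 and 3.71 in CDC6. At Zfp957 the region lay at the stop end (chr14:79212015-79212526), with folds of 2.77 and 2.51 in WT, 2.54 and 2.78 in APH, with 2.8 and 3.2 in CDC6. At both places the highest fold was in CDC6 2. The regions were picked for being in the CDC6 list alone, and that list came from the regions of CDC6 2, so this choice favours high CDC6 folds. The CDC6 and WT libraries overlapped in range between Zfp758 and Zfp944. At Zfp957 both CDC6 folds lay above both WT folds, but only just (2.8 against 2.77), and no difference between conditions is drawn from this. WT 1 had a stronger peak (fold 3.06) elsewhere at the ends of Zfp957.

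Zfp687, Zfp707, Zfp830 and Zfp946 were in the WT and CDC6 lists but not in the APH list. Zfp687, a partner of the chromatin reader ZMYND8, had folds of 5.23 and 3.17 in WT, 2.89 and 4.02 in APH, with 3.15 and 4.25 in CDC6. Zfp830, also known as Omcg1 and needed in the early embryo, had folds of 3.16 and 2.49 in WT, 2.18 and 2.56 in APH, with 3.04 and 2.73 in CDC6. The ranges of WT and APH overlapped at both genes. Zfp784 and Zfp710 had a gene-end origin in the WT and APH lists, and a gene-end peak in all 6 libraries.

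Zfp996, Zfp653 and Zfp788 were in the APH and CDC6 lists but not in the WT list. Zfp788 differed from the other 2 in that neither WT library had a gene-end peak. Its folds at the start end were 3.21 and 3.25 in APH and 2.72 and 4.95 in CDC6 (chr7:41633873-41634669). The window of Zfp788 printed above belongs to a start just over 1 kb inside the annotated one, so it lies outside the gene end, and the CDC6 origin reached into it while the APH origin did not. Both WT libraries did have a peak further inside Zfp788, with folds of 3.04 and 2.66. At Zfp996, in contrast, the WT libraries had folds of 6.05 and 2.72, and WT 1 was the highest of the 6.

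Gene-end peaks in all 4 stressed libraries and in neither WT library were rare. The set held 2 such genes, Zfp788 and Zfp984, and 0.18% of all genes were of this kind. At Zfp984 the peaks of the stressed libraries reached into the outer 1 kb of the gene end, while the WT libraries had peaks that began a little further out. The reverse, a gene-end peak in both WT libraries and none in the other 4, was found at Zfp827, Zfp936, Zfp971, Zfp994 and Zfp995, and at 0.536% of all genes. Zfp827 lies on chromosome 8 and its case also turned on the 1 kb limit, since an origin of all 3 lists (chr8:79028771-79031188) began a little beyond it. Zfp994 had 1 and 3 peaks in the WT libraries over the body with 1 kb on each side, and none in the 4 others. Over that stretch Zfp984 alone of the set had peaks in all 4 stressed libraries and none in WT (0.19% of all genes), and the reverse held for Zfp729a, Zfp780b, Zfp937, Zfp948 and Zfp994 (0.61% of all genes).

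Interior origins numbered 81 in 50 genes. Of these regions 22 were in all 3 lists, 19 in CDC6 only, 11 in APH only, 11 in APH and CDC6, 7 in WT only, 5 in WT and APH, and 6 in WT and CDC6. The same split was not counted for the interior regions of all genes. The lists also differ in length, with 20178 origins for WT, 31653 for APH and 31384 for CDC6, so no gain under stress is drawn from it. Another listed transcription start lay within 1 kb of 8 of the 81. Zfp804b, the longest gene of the set at 575 kb, held 10 interior origins, and Zfp710 held 5. Zfp609 and Zfp827 held 4 each. Zfp804b had 14 and 17 MACS peaks in the WT libraries, 18 and 13 in APH, and 12 and 17 in CDC6. The strongest of its interior origins (chr5:7085201-7086281) was in all 3 lists, with folds of 3.51 and 3.78 in WT, 3.92 and 4.15 in APH, with 6.84 and 4.92 in CDC6. Neither transcription end of Zfp804b had an origin.

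Zfp609 held no interior origin in the WT list and 3 in each of the other lists. By library, Zfp609 had 8 and 9 MACS peaks in WT, 6 and 5 in APH, with 9 and 8 in CDC6. Zfp827, whose human counterpart recruits the NuRD complex to telomeres, held 1, 1 and 4 interior origins in the WT, APH and CDC6 lists. It had 16 MACS peaks in WT 1, 3 in WT 2, 2 and 5 in APH, and 7 in each CDC6 library, with WT 1 far above WT 2 at this gene of chromosome 8.

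The number of MACS peaks per gene was compared between conditions with limma, on log2 of the peak number scaled to the library total plus 1. Genes with a mean of at least 1 peak were tested, which left 13742 genes, of which 100 were in the set; the other 82 had fewer peaks and were not tested. None of the 100 passed a Benjamini-Hochberg adjusted p of 0.05 in any of the 3 comparisons. Over all genes tested, limma called 5 genes (0.0364%) for APH against WT, 0 (0%) for CDC6 against WT and 4 (0.0291%) for APH against CDC6. At an unadjusted p under 0.05 there were 9, 10 and 10 genes of the set, or 9%, 10% and 10%. The same shares over all genes tested were 8.36%, 8.02% and 9.89%. The median log2 difference of the set was 0.03 for APH minus WT, 0.09 for CDC6 minus WT and 0.04 for APH minus CDC6, beside 0.09, 0.1 and -0.04 over all genes tested. Without scaling to the library total, the APH minus WT median was -0.16 in the set and -0.11 over all genes, so the sign of both follows the scaling. The comparisons share libraries and are not independent. The size of change that limma could call with 2 libraries per condition was not tested. A lack of calls thus does not show a lack of change.

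The genes described here and below were picked by p-value, and how many of all genes tested have groups without overlap was not counted. Zfp951 and Zfp995 had the smallest p-values against WT. Zfp951 had 5 and 5 peaks in the WT libraries and 1 in each of the other 4, so the groups did not overlap. The log2 difference was -1.41 for APH minus WT (SE 0.181, limma adjusted p = 0.247) and -1.45 for CDC6 minus WT (SE 0.181, limma adjusted p = 0.378). Zfp995 had 5 and 4 peaks in WT and 1 in each of the other 4, with log2 differences of -1.27 and -1.31 (limma adjusted p = 0.248 and 0.378). In both genes 1 interior origin stood in all 3 lists, and what differed was the further peaks of the WT libraries. At Zfp951 the peaks covered 3609 and 5435 bp in WT, 1050 and 1043 bp in APH, and 973 and 1081 bp in CDC6. Without WT 2, the only WT library is WT 1, of another cell line, so treatment and line cannot be told apart. The APH minus WT difference was then -1.31 for each gene. Without WT 1, the CDC6 minus WT difference was -1.52 for Zfp951 and -1.26 for Zfp995, with WT 2 as the only WT library. With no filter on peak number both were called in both comparisons (limma adjusted p from 0.0176 to 0.0211). The differences of Zfp995 became 0.07 and 0.03 when only peaks with a q-value of at most 0.01 were kept. With the second lists as labelled, the APH minus WT value of Zfp951 became 0.22. Of those 6 lists, 4 carry a label that goes against the MACS lists, so this value mixes conditions.

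Zfp972 went the other way in the APH libraries. It had 0 and 1 peaks in WT, 3 and 3 in APH, with 0 and 0 in CDC6, with no overlap in peak number between APH and the others. The bases covered did overlap, at 0 and 4368 bp in WT, 3402 and 2030 bp in APH, and 0 in both CDC6 libraries, and on that measure the limma adjusted p for APH minus WT was 0.862. The log2 difference was 1.60 for APH minus WT (SE 0.316, limma adjusted p = 0.328) and 2.09 for APH minus CDC6 (SE 0.316, limma adjusted p = 0.247). Without WT 1 the APH minus CDC6 difference of Zfp972 was 2.05, and without WT 2 it was 2.09. Zfp972 had no origin in any list, and the folds of its strongest peaks lay between 2.28 and 2.42. Without WT 2 its APH minus WT difference was 2.09, against WT 1 alone, which is another cell line. Without WT 1 its CDC6 minus WT difference was -0.96, against WT 2 alone.

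The other genes with the smallest p-values differed by 1 to 3 peaks. Zfp964, on chromosome 8, had 3 and 2 peaks in WT and 1 in each of the other libraries, and its start-end origin (chr8:69654228-69655355) stood in all 3 lists. Zfp623 had 2 peaks in each CDC6 library and 1 in each of the other 4. Zfp961 had 1 and 1 in WT, 0 and 0 in APH, with 3 and 1 in CDC6, a log2 difference of -1.54 for APH minus CDC6 (SE 0.358, limma adjusted p = 0.378). Zfp956 had 2 and 0 in WT, 0 and 0 in APH, with 2 and 2 in CDC6, a difference of -1.61 (SE 0.446, limma adjusted p = 0.391). Zfp640 had 3 and 2 in WT, 2 and 3 in APH, with 1 and 1 in CDC6. None of these reached an adjusted p of 0.05 with limma in the fit described above. Without scaling to the library total, limma called Zfp623 for CDC6 minus WT (log2 difference 0.58, adjusted p = 0.000117) and for APH minus CDC6 (-0.58, adjusted p = 0.000157). Its unscaled counts are equal within each condition and differ by 1 peak. The SE of 0.00899 is thus borrowed from other genes, and these p-values do not measure a spread between libraries. Without WT 2, the APH minus WT differences of Zfp956, Zfp612 and Zfp775 were -1.42, -1.81 and -1.81. They are against WT 1 alone, which is another cell line. The APH minus CDC6 differences of these genes in that fit were -1.61, -1.02 and -1.61.

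Of the 182 genes, 31 had no MACS peak in any library over the body with 1 kb on each side, against 16.7% of all genes. Among them 13 lay in 1 cluster on chromosome 4 and 6 on chromosome 2. The longest were Zfp993 (479 kb) and Zfp978 (267 kb), followed by Zfp982, Zfp991, Zfp600, Zfp981, Zfp980 and Zfp985, all on chromosome 4. Some of these gene bodies overlap: Zfp981 with Zfp993, and Zfp978 with Zfp991 and Zfp988. They share their bases and are not separate observations.

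The chromosome 4 cluster holds 15 genes over 2.34 Mb (chr4:145510759-147849126) and belongs to the clusters that grew in the mouse lineage. No gene of it held an origin in any list. Across the span each library had 2 to 4 MACS peaks, or 0.855 to 1.71 per Mb, beside 30.9 to 39.9 per Mb over the whole of chromosome 4. All of these peaks lay at the far end: the first 2.3 Mb held no peak in any library, and the peaks of all 6 libraries fell in the last 37.5 kb, around Zfp984 and Zfp933. In the 1 Mb before the cluster the libraries had 20 to 31 peaks, and in the 1 Mb after it 41 to 86. Whether reads could be placed in this span was not tested, since the lists do not show it. In the 11 genes of the cluster with a promoter entry, the median share of 30-base words found in another gene's promoter window was 34.7%.

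**Figure D3:**
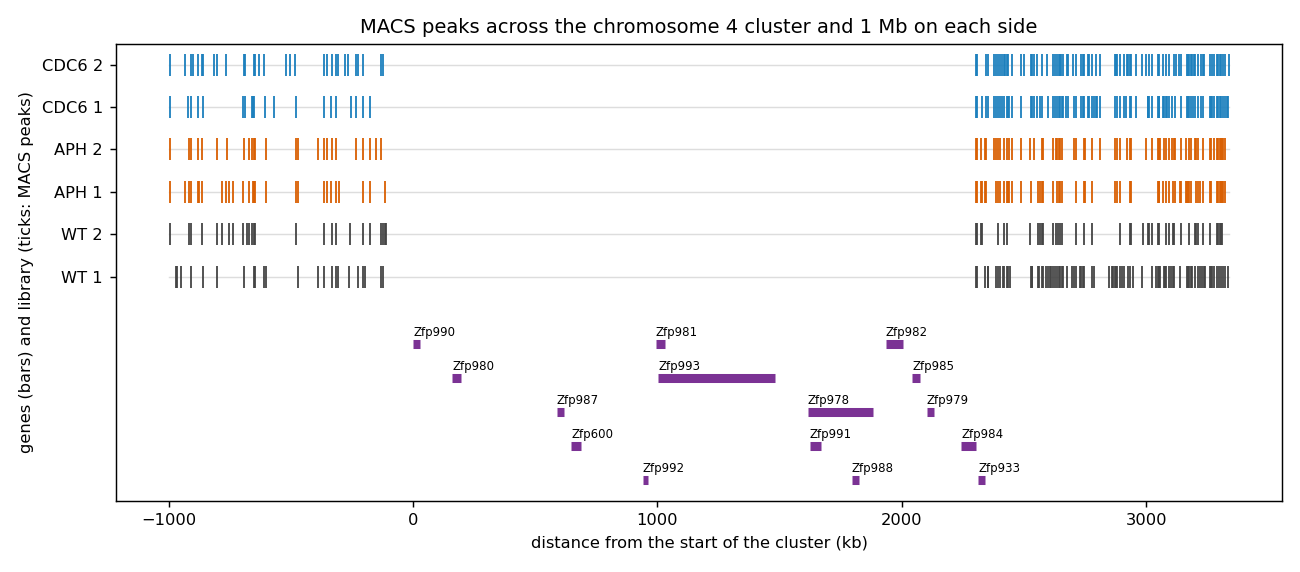
MACS peaks of the 6 libraries (ticks, 1 row per library) and the 15 gene bodies of the chromosome 4 cluster (bars), by distance in kb from the start of the cluster, with 1 Mb on each side. No library has a peak in the first 2.3 Mb of the cluster, while 20 to 31 peaks lie in the 1 Mb before it and 41 to 86 in the 1 Mb after it.

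A lack of peaks was not shared by the other clusters. Genes of the set that lie within 500 kb of the next formed 8 clusters of at least 5 genes, with 77 genes in all. In the WT, APH and CDC6 lists, 10, 10 and 13 of these 77 had a gene-end origin, and 32, 30 and 35 of the 105 other genes of the set. The chromosome 13 cluster (chr13:66670274-67683512, 11 genes, Zfp640 to Zfp738) had no gene-end origin in any list, yet 23.6 to 55.2 MACS peaks per Mb. The WT libraries had 39 and 56 peaks in it, the APH libraries 43 and 40, and the CDC6 libraries 25 and 24. The CDC6 libraries thus lay below the other 4, without overlap; this difference was not tested and was noticed after the values were seen. The cluster of 14 genes on chromosome 17 (chr17:21383707-22867309, Zfp677 to Zfp945) had 2, 1 and 4 genes with a gene-end origin and a MACS peak in each of its 14 genes in at least 1 library. Its span also held fewer peaks in CDC6 (44 and 51) than in WT (67 and 84) or APH (60 and 56).

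The cluster at the other extreme lies on chromosome 7 (chr7:127242996-127885996, 9 genes, Zfp771 to Zfp646). It had 5, 5 and 6 genes with a gene-end origin in the WT, APH and CDC6 lists. Its MACS peaks numbered 61 and 40 in WT, 41 and 55 in APH, with 61 and 57 in CDC6, or 62 to 94.6 per Mb. Its promoter windows had a median of 23.5 CpG dinucleotides, against 5 in the chromosome 4 cluster. The second cluster on chromosome 7 (chr7:42579397-43618279, 8 genes, Zfp977 to Zfp819) had no gene-end origin in any list, and 25.9 to 50.9 peaks per Mb. It had 53 and 42 peaks in WT, 34 and 32 in APH, with 27 and 30 in CDC6. The chromosome 8 cluster (chr8:69209018-69774911, 6 genes) had 2 genes with a gene-end origin in each list. It had 48 and 37 peaks in WT, 36 and 33 in APH, with 19 and 24 in CDC6. In this and the second chromosome 7 cluster the CDC6 libraries also lay below all others, as in the chromosome 13 and larger chromosome 17 clusters. In the remaining clusters the CDC6 libraries overlapped those of WT or APH. These differences were not tested, and how many spans of the genome differ so was not counted.

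**Figure D4:**
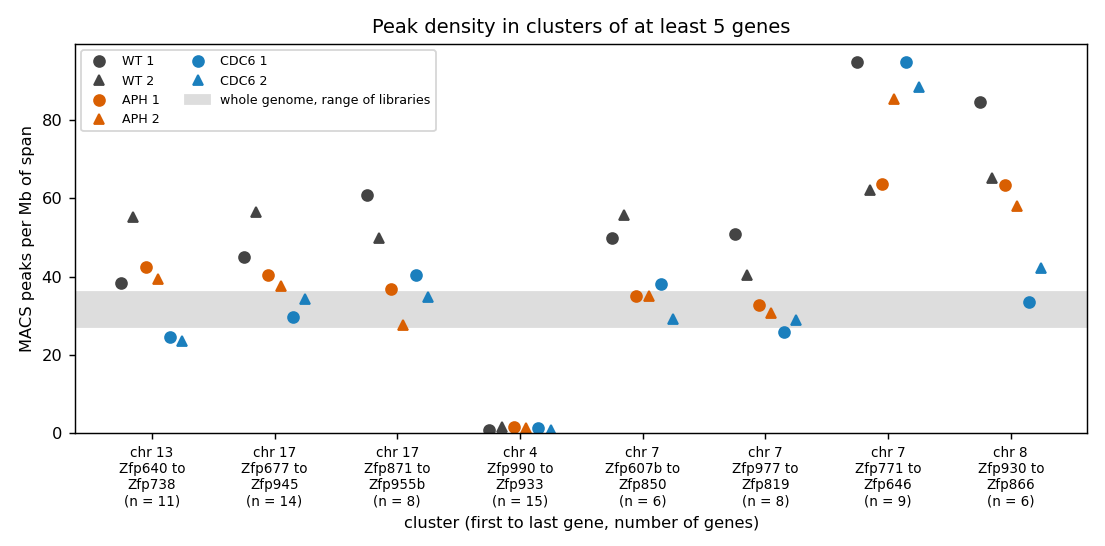
MACS peaks per Mb of span (y axis) in each of the 6 libraries (points) for the 8 clusters of at least 5 genes (x axis), with the range of the 6 libraries over the whole genome as a grey band. The chromosome 4 cluster lies at 0.855 to 1.71 peaks per Mb, and the chromosome 7 cluster of Zfp771 to Zfp646 at 62 to 94.6.

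A group of 9 genes near the end of chromosome 2 (chr2:175372034-178078425) resembled the chromosome 4 cluster in part. It comprises Zfp968, Zfp965, Zfp966, Zfp967, Zfp973, Zfp970, Zfp972, Zfp971 and Zfp931. None of the 9 held an origin, and 5 had no MACS peak in any library. In 8 of the 9, at least 50% of the words of 30 bases in the promoter window were also found in another gene's window. The windows of Zfp966 and Zfp967 were identical over all 300 bases, and that of Zfp966 shared an unbroken run of 274 bases with Zfp968, 227 with Zfp970, 220 with Zfp965 and 194 with Zfp973. Zfp955a and Zfp955b on chromosome 17 also had identical windows. Reads from such copies cannot be told apart by their sequence, and counts at these genes are uncertain.

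Over the whole set, 24 of the 158 genes with a promoter entry had at least 50% of words shared with another gene. Words on either strand counted, so overlapping windows of neighbouring genes also count as shared. Of the 24 genes, 3 (12.5%) had a gene-end origin in some list and 12 (50%) had no start-end peak in any library. The 3 are Zfp607b, Zfp758 and Zfp944, of which Zfp758 and Zfp944 share the same region between their starts. Of the 134 other genes, 42 (31.3%) had a gene-end origin and 35.1% had no start-end peak. Over all genes with a promoter entry, a gene-end origin was found in 34.4% of those with shared words and 45.3% of the others. No start-end peak was found in 42.9% and 32.9% of them. The part of read placement in these shares was not tested.

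Promoter composition went along with the origins. Where a gene had several listed starts, the window with the most CpG dinucleotides was used, and it may lie away from the annotated gene end. The median number of CpG dinucleotides per window was 11 over the 158 genes, 15 over all genes and 16 over the other Zfp genes. It was 26 in the genes with a gene-end origin in all 3 lists (n = 25 with an entry), 18.5 in those of 1 or 2 lists (n = 20), 9 in those of no list (n = 113) and 6 in those without any peak (n = 27). Over all genes the median was 27 for those in all 3 lists and 6 for those in none. These are descriptions, with no test, since neighbouring genes share sequence.

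Within 3 of 4 classes of CpG number the set lay below all genes. Among the 47 genes of the set with at least 20 CpG dinucleotides, 23, 21 and 25 had a start-end origin in the WT, APH and CDC6 lists (48.9%, 44.7% and 53.2%), against 56.1%, 55.9% and 66.8% of all genes of that class. The other Zfp genes of the class also lay below all genes, at 50.8%, 52.5% and 55.9%. Origins were counted at the annotated start end only. Zfp771 and Zfp827, with 25 and 23 CpG dinucleotides, thus count as without one, though each has an interior origin near another listed start. Among the 45 genes with 10 to 19, there were 5, 4 and 6 (11.1%, 8.89% and 13.3%), against 28.1%, 28.1% and 37.8% of all genes. The other Zfp genes of that class had 18.7%, 16% and 17.3%. Among the 51 genes with 5 to 9, there were 1, 4 and 3 (1.96%, 7.84% and 5.88%), against 10%, 11.9% and 15.1% of all genes. Among the 15 with 0 to 4, there were 1, 1 and 0 (6.67%, 6.67% and 0%), against 3.1%, 3.99% and 4.4%, so in this class of few genes the WT and APH shares lay above those of all genes. Among genes with at least 20 CpG dinucleotides, 3 of 47 (6.38%) had no start-end peak in any library, against 7.94% of all genes.

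**Figure D5:**
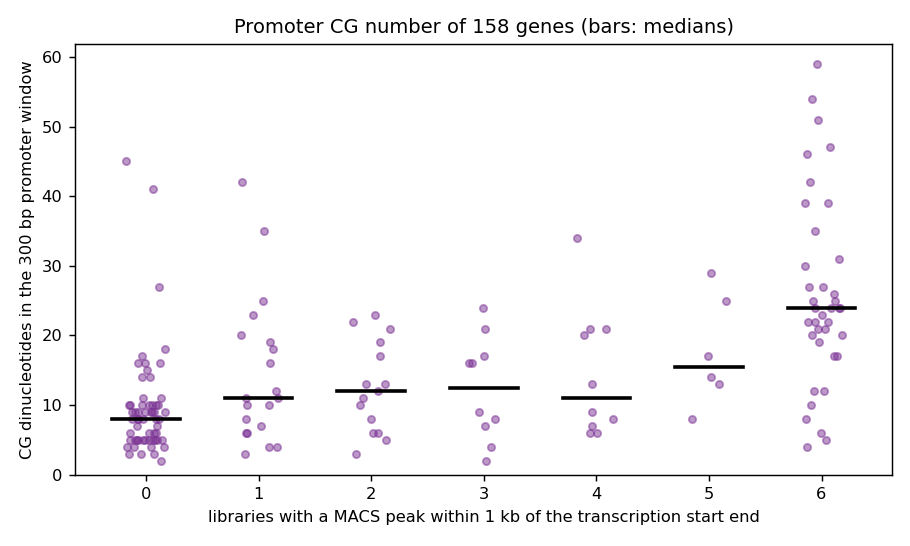
Number of CG dinucleotides in the 300-base promoter window (y axis) of 158 genes, by the number of the 6 libraries with a MACS peak within 1 kb of the transcription start end (x axis); points are genes and bars are medians. The median is 8 in the 59 genes with no such peak and 24 in the 38 genes with a peak in all 6 libraries. Genes with several listed starts are shown by the window with the most CG dinucleotides.

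The libraries showed the same spread within classes. The 38 genes with a start-end peak in all 6 libraries had 4 to 59 CpG dinucleotides, and the 59 genes with none had 2 to 45. Zfp804a, with 45, was among the latter, and had a gene-end peak only in WT 1, at its other end. A motif able to form a G-quadruplex was searched for on both strands, as 4 runs of GGG separated by 1 to 7 bases. It was present in 13.3% of the windows of the set, in 36% of those with a gene-end origin in all 3 lists and in 8.85% of those in none, against 22.5% of all windows of the same length. Over all genes it was present in 39.2% of the windows with a gene-end origin in all 3 lists and in 12.8% of those in none, so the windows of all genes showed the same order. CpG-rich windows are also rich in G and C, so the 2 measures overlap, and a match is a description only.

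The genes through which KRAB zinc finger proteins act are given beside the set. In a list of 34 corepressor genes, 23, 22 and 23 had a gene-end origin in the WT, APH and CDC6 lists, and 20 had one in all 3. These are 67.6%, 64.7% and 67.6%, and 58.8% in all 3, against 32.2%, 33.3% and 40.6%, and 27.3%, of all genes. No test was made of the difference. Trim28, the scaffold that binds KRAB domains, had folds of 6.08 and 3.81 in WT, 5.81 and 6.31 in APH, with 5.31 and 6.9 in CDC6. Setdb1, the histone methyltransferase that acts with it, had no gene-end origin in any list. The 34 genes had no limma call in any comparison, and median log2 differences of 0.13, 0.12 and 0.04.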

How the data were processed

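Short nascent strands from 6 libraries were analysed as deposited lists; the Input sample was not used as a list. The tools named, per the submitters' processing notes, include BWA 0.7.10 and SAMtools 0.1.19, Picard 1.107, bedtools 2.23.0, FastQC and MACS2 2.0.10; what each did is not stated. The deposited MACS lists hold, per peak, the authors' score, the fold ratio over 1 shared control, and the −log10 p-value and q-value. The deposited condition lists and second library lists hold 2 scores of unstated meaning, and the way the authors made condition lists is unstated. Read depth is not recorded in these files; peak totals stand in for it, and no counting interval is given.

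An overlap of 1 bp counted. Peak numbers per gene body with 1 kb on each side were scaled to the library total, log2 transformed after adding 1, and fitted with limma 3.58.1 (R 4.3.3; lmFit, eBayes with trend) over all 6 libraries, with Benjamini-Hochberg adjustment over 13742 genes. Replicate numbers did not pair the libraries: correlations of their deviations were -0.142, 0.00358 and -0.0471.

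The genes and lists were chosen with earlier results of these data known. Genes were named by rule: the 8 strongest in all 3 lists, up to 4 for each other pattern, the 4 with most interior origins, the 3 smallest limma p-values per direction, the 8 longest without a peak, 4 with a peak in all libraries but in no list, and genes of known role among these; exceptions are marked. No genome sequence was used; promoters came from RefSeq (158 of 182 genes matched). Alternatives tried were the window, q-value, filter, pseudocount, scaling, covered bases, the strongest 20000 peaks, second lists, lists of equal length by the first score, a replicate block and each library left out. Added after seeing the data were the score ratio, the genes outside the chromosome 4 cluster and those with few shared promoter words.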

Additional observations from a re-analysis of the deposited data

How the results depend on the processing

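The WT count of genes with a gene-end origin became 25 without the 1 kb window, and the APH count became 63 with a window of 5 kb. Counting genes with a MACS peak in both libraries gave 70 for WT, 63 for APH and 83 for CDC6. The mean number with a MACS peak became 46.5, 38 and 45.5 for WT, APH and CDC6 with the 20000 strongest peaks per library. It became 61.5 for WT and 55.5 for CDC6 with the second lists as labelled, and 109.5 for APH with a window of 5 kb. For 4 of the 6 second lists the label goes against the MACS lists.

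The limma counts over all genes rested on single libraries and settings. For APH against WT and APH against CDC6 they were 0 with a mean of at least 2 peaks, a pseudocount of 0.5, covered bases, q-values of at most 0.01, or the second lists. The replicate block, which pairs libraries by number, also gave 0 in both, and changed no call for the set's genes. Without a filter on peak number limma called 304, 253 and 278 genes for APH against WT, CDC6 against WT and APH against CDC6, of which 3, 3 and 0 in the set. Without scaling it called 318, 340 and 318, of which 4, 5 and 1 in the set. The unscaled counts of Zfp623, Zfp746 and Zfp951 are equal within each condition, so their calls rest on no spread between libraries. The median log2 difference of all genes moved from 0.09 to -0.11 for APH minus WT, with that of the set moving from 0.03 to -0.16. Leaving out each library gave 0 to 216, 0 to 267 and 0 to 183 genes over all, and 0 to 6, 0 to 3 and 0 to 4 in the set. When WT is left with 1 library, it is assumed to vary like the other conditions. Without WT 2 that library is WT 1, of another cell line, so treatment and line cannot be told apart. The set's calls came only without WT 1 (0, 3 and 1) or WT 2 (6, 0 and 4).

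Among named genes, 7 log2 differences reversed. Zfp707 became -0.32 for APH minus WT with covered bases. With the second lists as labelled, Zfp951 became 0.22 and Zfp964 0.08 for APH minus WT, and Zfp640 -0.18 and Zfp944 -0.80 for APH minus CDC6. As 4 of the 6 labels go against the MACS lists, these values mix conditions. With q-values of at most 0.01, Zfp995 became 0.07 for APH minus WT and 0.03 for CDC6 minus WT. The cause of the other reversals was not tested. Of the other named-gene values, 196 kept their direction and side of the threshold and 18 newly passed it.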
